A study of Mus musculus with 10 samples.

Results

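The direct comparison of Stat5 overexpression with Stat5 deletion in mouse ileal crypts used 7 of the 10 RNA-seq libraries of the study, with no control library. The KO group held 2 libraries of genotype VilCreER;Stat5 (STAT5IEC-/-), and the OE group held 5 libraries of genotype VilCreER;icS5 (STAT5IEC+++). All 7 were labelled male, C57Bl6 and 12 weeks old. Both groups carried VilCreER, an inducible Cre driven by the villin promoter, which is active in intestinal epithelial cells. The labels do not say whether or when the inducer was given, and they do not spell out icS5. Because KO and OE mice carried different alleles, the effect of the allele line and that of Stat5 dose cannot be told apart. The labels do not tie each library to an animal of its own. The p-values therefore cover the spread among these 7 samples, part of which may be technical. Genes entered when their deposited value was at least 1 TPM (a length-corrected share of all transcripts) in at least 2 of the 7 libraries, which left 12697 of 28987 gene IDs.

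STAT5A and STAT5B are closely related transcription factors. Receptors for growth hormone, prolactin and several interleukins activate Janus kinases (JAKs), which phosphorylate STAT5. The dimer then enters the nucleus and binds promoters and enhancers, where it turns on, among others, its own feedback inhibitors of the SOCS family. Crypts are the pits of the intestinal lining. They house stem cells, their dividing progeny and, at the base, Paneth cells, which secrete alpha-defensins and lysozyme. Intraepithelial lymphocytes, T cells lodged between epithelial cells, come away with such preparations and depend on interleukins that signal through STAT5.

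Levels are given as scaled TPM, the deposited TPM divided by a median-ratio factor for each library, and differences as OE minus KO on the log2(scaled TPM + 1) scale with 95% intervals of the limma fit. This scale understates the change of genes near or below 1 TPM. The depth of sequencing is unknown, because TPM hold no read numbers. Deposited TPM summed to between 979900 and 984870, mitochondrially encoded genes took 43.3% to 57.0% of them, and scaling factors ran from 0.743 in OE 1 to 1.17 in OE 2. Epithelial markers were high everywhere, with a sum over 12 genes of 6442 and 5932 scaled TPM in KO and 5006 to 8069 in OE. OE 1 stood apart, with the highest sums of brush border, lipid absorption, myeloid and fibroblast genes. OE 3 and OE 4 went against the label male: their Y-linked transcripts summed to 0.250 and 0.140 deposited TPM, against 43.8 to 131 in the other 5 libraries. Values without both are given where they bear on a result. In bulk crypt RNA, fewer cells of a type and less RNA per cell cannot be told apart.

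OE crypts held more Stat5a and Stat5b mRNA than KO crypts, with no overlap between the groups. Both genes passed the filter through OE libraries alone. Genes of T cells and intraepithelial lymphocytes were the list that leaned furthest towards OE, with 17 of 18 tested genes at a positive difference. Alpha-defensins, classical STAT5 targets and DNA replication genes leaned the same way by smaller amounts. Tuft cell, Paneth cell, B cell and immediate early genes did so too. Their medians of 0.70, 0.63, 0.61 and 0.39 lay above the 0.35 of the STAT5 targets. Some lists, such as fibroblast genes at -0.51, leaned the other way. Of the tested STAT5 targets, 15 of 20 had a positive difference, against 48.6% of all genes, and their summed level overlapped between the groups. Pim3 alone was higher and Socs2 alone lower in every OE library. That is near the shares of all genes, 3.98% and 4.73%. Sox9, Tcf7l2 and Gfi1, genes named in the title of the study, overlapped between the groups.

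No gene passed the test. Of the 12697 genes, 0 were higher (0%) and 0 lower (0%) in OE at a limma adjusted p under 0.05, and the smallest adjusted p was 0.153. At an unadjusted p under 0.05, 297 genes (2.34%) were higher and 232 (1.83%) lower. In 505 genes (3.98%) all OE libraries exceeded both KO libraries, and in 601 genes (4.73%) every OE library lay below both. Genes of either kind are called separated, and these shares are the background for each count that follows. The median difference over all genes was -0.01, and 6171 genes (48.6%) had a positive difference. Lists are therefore described by their counts and medians beside these values, and no change is claimed for a list.

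Stat5b (ENSMUSG00000020919, GRCm38 chromosome 11, 100780731 to 100850724, minus strand) and Stat5a (ENSMUSG00000004043, chromosome 11, 100859351 to 100885169, plus strand) lie next to each other. Stat5a stood at 0.709 and 0.379 scaled TPM in KO 1 and KO 2, and at 1.74, 2.34, 3.94, 3.11 and 3.13 in OE 1 to OE 5. The means were 0.544 ± 0.234 (SD, n = 2) in KO and 2.85 ± 0.840 (SD, n = 5) in OE. All OE libraries exceeded both KO libraries, with OE 1 the lowest of them. The difference in means, 2.31 scaled TPM, gave p = 0.0476 in an exact two-sided permutation test with 21 arrangements, the smallest p this design can give. Without OE 3 and OE 4 it was 1.82 (exact permutation p = 0.1), where p cannot go lower.

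Stat5b stood at 0.537 and 0.485 scaled TPM in KO and at 1.67, 3.90, 5.22, 6.13 and 2.95 in OE. The groups again did not overlap, and OE 1 was again the lowest OE library. The means were 0.511 ± 0.0365 (SD, n = 2) and 3.97 ± 1.77 (SD, n = 5), and their difference of 3.46 scaled TPM gave p = 0.0952 in the exact two-sided permutation test. Without OE 3 and OE 4 the difference was 2.28 (exact permutation p = 0.2). On the log2 scale, the difference was 1.30 (0.57 to 2.02) for Stat5a and 1.64 (0.72 to 2.55) for Stat5b, each with a limma adjusted p of 0.920 over all genes. Neither gene was listed at 0 in a KO library, but each lay below 1 TPM in both. Stat5a and Stat5b thus passed the filter through OE libraries alone, so their separation and p-values are descriptions. Both genes differed in the direction the labels state, at levels of a few TPM even in OE.

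**Figure D1:**
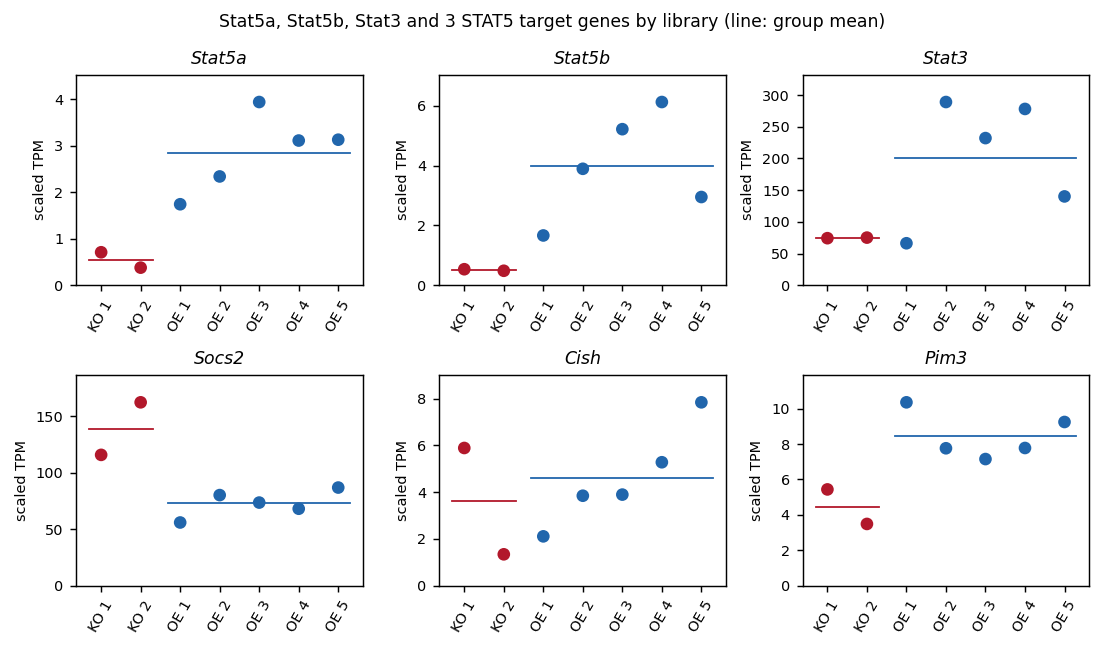
Scaled TPM (vertical axes, from 0) of Stat5a, Stat5b, Stat3, Socs2, Cish and Pim3 in the 2 KO libraries (red) and the 5 OE libraries (blue), with horizontal lines at the group means. Stat5a, Stat5b and Pim3 lay higher in every OE library, Socs2 lay lower in every OE library, and Stat3 overlapped through OE 1 alone.

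Stat3, a STAT activated mainly by the interleukin 6 and 10 families, is the neighbour of Stat5a, and this neighbourhood was looked at after its values were seen. The annotated spans of Stat5a and Stat3 (chromosome 11, 100885098 to 100939540, minus strand) overlap by 72 bases on opposite strands. Strand-specific counting is not stated, so reads there cannot be assigned. Stat3 stood at 74.3 and 75.2 scaled TPM in KO and at 66.3, 289, 232, 278 and 140.2 in OE. OE 2 to OE 5 lay at 140.2 or more, while OE 1 lay below both KO libraries. The log2 difference was 1.23 (-0.02 to 2.48, limma adjusted p = 0.920). Of the 6 tested genes within 100 kb of the Stat5 genes, Cavin1, a caveolar coat protein gene, was the one whose groups did not overlap. It stood at 1.12 and 1.20 scaled TPM in KO and at 1.77, 4.04, 4.14, 2.95 and 5.90 in OE. Dhx58, Kat2a, Rab5c and Ghdc overlapped.

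The list of JAK and STAT genes leaves out Stat5a and Stat5b and includes Stat3, whose 1.23 was its largest log2 difference. Of 9 tested, 8 had a positive difference (background 48.6%), with a median of 0.37, and in 1 all OE libraries exceeded both KO libraries (background 3.98%). That gene was Stat4, a STAT of T and natural killer cells, at 0.516 and 0.337 scaled TPM in KO and 1.63, 0.852, 1.26, 2.46 and 2.22 in OE. Stat4 lay below 1 TPM in both KO libraries, so it passed the filter through OE libraries alone, and its separation is a description. Stat6, which mediates interleukin 4 and 13 signals, stood at 55.4 and 31.3 in KO and at 62.3, 90.2, 49.96, 53.2 and 76.0 in OE, overlapping through OE 3 and OE 4. The kinases Jak1 and Jak2, which sit on the receptors, had log2 differences of 0.02 (-0.56 to 0.60) and -0.01 (-0.48 to 0.46). Tyk2 (0.02), Jak3 (0.56) and Stat2 (0.37) overlapped as well. Jak1, Jak3, Stat6 and Tyk2 share exonic bases with other genes, so part of their signal is uncertain.

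Receptors that signal through STATs were lower in sum in every OE library. The sum over 30 listed receptor genes was 264 and 331 scaled TPM in KO and 248.7, 229, 246, 224 and 213 in OE. This separation depended on Erbb3: with that gene left out of the sum, OE 1 fell between KO 1 and KO 2. Of the 19 that were tested, 8 had a positive and 11 a negative difference, with a median of -0.08, which turned to 0.01 without OE 5. In 3 every OE library lay below both KO libraries (background 4.73%): Erbb3, Il10rb and Insr. Erbb3, a neuregulin co-receptor, stood at 69.8 and 101 scaled TPM in KO and at 36.4, 51.4, 60.03, 41.5 and 38.9 in OE, a log2 difference of -0.89 (-1.52 to -0.26). Insr, the insulin receptor, stood at 11.5 and 10.4 in KO and 5.52 to 9.07 in OE. Il10rb, a chain of the interleukin 10 and 22 receptors, stood at 34.0 and 35.1 in KO and 26.4 to 30.2 in OE. In TPM as deposited, only Erbb3 of the 3 kept its separation. Il2rg, the chain shared by receptors for interleukins 2, 7 and 15, had the largest difference of the list, in the other direction, at 1.55 (0.01 to 3.10, limma adjusted p = 0.920). It overlapped at 7.27 and 1.41 in KO and 18.8, 3.46, 10.5, 20.2 and 17.1 in OE. Prlr, the prolactin receptor, overlapped at 37.7 and 34.6 in KO and 45.9, 29.2, 23.3, 15.4 and 19.5 in OE, with OE 1 the exception to lower OE values.

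STAT5 binds the palindrome TTCNNNGAA, which reads the same on both strands. RefSeq promoter windows of GRCm38.p6, each with 250 bases before and 50 after a gene start, were searched for these letters. The palindrome was in 2726 of 32851 windows (8.3%), and in at least 1 window of 791 of the 9319 tested symbols with an entry (8.49%). Among the classical STAT5 targets it was found for 3 of the 15 tested genes with an entry (20%), namely Cish, Socs3 and Bcl6. It was found for 3 of 10 tested lymphocyte genes with an entry (30%; Cd3d, Gzmb and Nkg7) and for 3 of 27 DNA replication genes (11.1%; Cdc45, Lig1 and Mcm5). The sequences below show these matches, and that of Gzmb from the lymphocyte list, 5′ to 3′ on the gene's strand with the palindrome in capitals.
Cish, chr9:107296654-107296683 (+): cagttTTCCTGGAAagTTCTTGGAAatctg
Socs3, chr11:117969502-117969531 (-): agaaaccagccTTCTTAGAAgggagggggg
Bcl6, chr16:23988952-23988981 (-): tagcaaattagTTCTCAGAAttccagaggc
Bcl6, other start, chr16:23981358-23981456 (-): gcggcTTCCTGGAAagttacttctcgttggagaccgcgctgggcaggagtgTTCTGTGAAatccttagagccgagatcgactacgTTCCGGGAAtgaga
Gzmb, chr14:56262285-56262314 (-): gcagtagggcaggagttTTCATAGAAagca
The Cish window holds 2 matches, starting at +1 and +12 from the gene start, and the second Bcl6 window holds 3, starting at -168, -122 and -88. The Socs3 match starts at -154, the match of the shorter Bcl6 window at -118 and the Gzmb match at +38. A match is a description of the letters and no evidence of binding.

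Cish, a SOCS-family inhibitor of the receptor and a textbook STAT5 target, stood at 5.89 and 1.34 scaled TPM in KO and at 2.11, 3.85, 3.90, 5.28 and 7.85 in OE. The KO libraries spanned most of the OE range, and the log2 difference was 0.39 (-0.75 to 1.54). Socs3, the inhibitor best known from interleukin 6 signalling, had a log2 difference of -0.40 (-1.46 to 0.65), and Bcl6, a transcriptional repressor, one of 0.24 (-0.45 to 0.93). The 3 genes whose promoter windows hold the palindrome overlapped between OE and KO.

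Of 27 listed STAT5 targets, 20 were tested and 15 of these had a positive difference (background 48.6%), with a median of 0.35. The sum over the 27 genes overlapped, at 440 and 556 scaled TPM in KO and 626, 442.5, 434.5, 440 and 558 in OE. Leaving out OE 1 brought the median difference to 0.21, as did leaving out OE 5, and it was 0.30 without OE 3 and OE 4. In 1 target all OE libraries exceeded both KO libraries, and in 1 every OE library lay below both (backgrounds 3.98% and 4.73%). The former was Pim3, a survival kinase of the PIM family, at 5.44 and 3.48 scaled TPM in KO and at 10.4, 7.76, 7.15, 7.78 and 9.25 in OE. Its log2 difference was 0.81 (0.22 to 1.39, limma adjusted p = 0.920).

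Socs2, the feedback inhibitor of growth hormone signalling, went the other way. It stood at 116 and 162 scaled TPM in KO and at 55.8, 80.1, 73.4, 68.0 and 86.7 in OE. The highest OE library thus lay below the lower KO library. The log2 difference was -0.92 (-1.50 to -0.33, limma adjusted p = 0.920). The promoter table has no entry for Socs2.

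The remaining targets overlapped. Among survival genes, Bcl2l1 differed by 0.31 (-0.63 to 1.26), Mcl1 by 0.02 (-0.50 to 0.55) and Pim1 by 0.10 (-0.49 to 0.70) on the log2 scale. Among growth genes, Myc differed by 0.08 (-0.70 to 0.86), Ccnd1 by -0.47 (-1.18 to 0.23) and Ccnd2 by -0.11 (-1.07 to 0.86). Gadd45g, a stress gene induced by cytokines, had the largest positive value of the list, 1.38 (-0.004 to 2.75). It stood at 3.76 and 2.64 scaled TPM in KO and at 24.5, 7.38, 3.38, 8.24 and 16.0 in OE, with OE 3 between the KO libraries. Ccnd3, Onecut1, Wap and Csn2 were listed at 0 in all 7 libraries. Wap and Csn2 encode milk proteins. Ccnd3 is in general use by dividing cells, so its 0 may be a failed estimate in these files.

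The study's title names Wnt3a, Tcf4 (Tcf7l2), Sox9 and Gfi1 in relation to Paneth cells. Sox9, a transcription factor needed for Paneth cells, stood at 14.7 and 18.0 scaled TPM in KO and at 8.79, 16.1, 18.2, 13.5 and 16.8 in OE. Tcf7l2, the main partner of beta-catenin in crypts, stood at 10.8 and 19.0 in KO and at 20.2, 17.1, 13.1, 12.2 and 18.6 in OE. Gfi1, a transcriptional repressor that acts within the secretory lineage, stood at 2.14 and 2.54 in KO and at 1.85, 0.434, 2.92, 4.57 and 3.62 in OE. All 3 overlapped, with log2 differences of -0.18 (-0.86 to 0.51), 0.14 (-0.55 to 0.83) and 0.00 (-1.15 to 1.15). The value of Tcf7l2 turned to -0.24 without KO 1, and that of Gfi1 lay on either side of 0 with several settings. Wnt3a, a Wnt ligand, was listed at 0 in all 7 libraries and was not tested.

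Paneth cell genes leaned towards OE with wide spread. Of 21 tested, 18 had a positive difference, with a median of 0.63, and in 1 (Copz2) all OE libraries exceeded both KO libraries. The sum over 23 genes was 2863 and 6444 scaled TPM in KO and 3272 to 9976 in OE, so KO 2 lay above several OE libraries. Lyz1, the Paneth cell lysozyme, stood at 653 and 2926 scaled TPM in KO and at 1666, 1014, 4086.5, 472 and 1410.4 in OE, a log2 difference of -0.03 (-1.92 to 1.86). Itln1, a lectin of Paneth cells, overlapped likewise at 0.81 (-0.67 to 2.29).

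Alpha-defensins, the antimicrobial peptides of Paneth cell granules, separated more often. Of 20 tested, 17 had a positive difference with a median of 0.82, and in 5 all OE libraries exceeded both KO libraries (background 3.98%), or 4 in TPM as deposited. Defa3 stood at 66.8 and 99.3 scaled TPM in KO and at 174, 265, 458, 472 and 714 in OE, a log2 difference of 2.18 (1.00 to 3.35, limma adjusted p = 0.920). Defa31 stood at 596 and 1198 in KO and at 1878.5, 1406, 3743, 1349 and 5780.4 in OE. Defa17, Defa26 and Defa30 also separated. OE 5 was the highest library for each of the 5 genes, and KO 1 the lowest. The list's median was 0.44 without KO 1 and 0.49 without OE 5, and 0.95 without OE 3 and OE 4. Alpha-defensin genes are near-identical copies, and how reads were split between them is not given, so single members are uncertain and the list is not a set of independent genes.

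Of 22 goblet cell genes, 18 had a positive difference with a median of 0.28, which ran from 0.08 without OE 4 to 0.445 without OE 2 and was 0.07 without OE 3 and OE 4. Ern2, an endoplasmic reticulum stress sensor of mucous cells, was the one that separated, at 3.14 and 2.82 scaled TPM in KO and 4.53, 3.37, 4.82, 7.61 and 3.90 in OE, and it overlapped in TPM as deposited. Muc2, the main gel-forming mucin, stood at 352 and 495 scaled TPM in KO and at 543, 233, 637, 1189.5 and 653 in OE. Of 19 tested tuft cell genes, 18 had a positive difference with a median of 0.70 and no gene separated. That median rested on KO 2: it was -0.25 without KO 2 and 1.43 without KO 1. The tuft sum was 353.5 in KO 1 and 111 in KO 2, against 194 to 597 in OE. Of 17 tested enteroendocrine genes, 13 had a negative difference, with a median of -0.18, which turned to 0.01 without KO 1 and 0.05 without OE 4 and was -0.05 without KO 2.

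**Figure D2:**
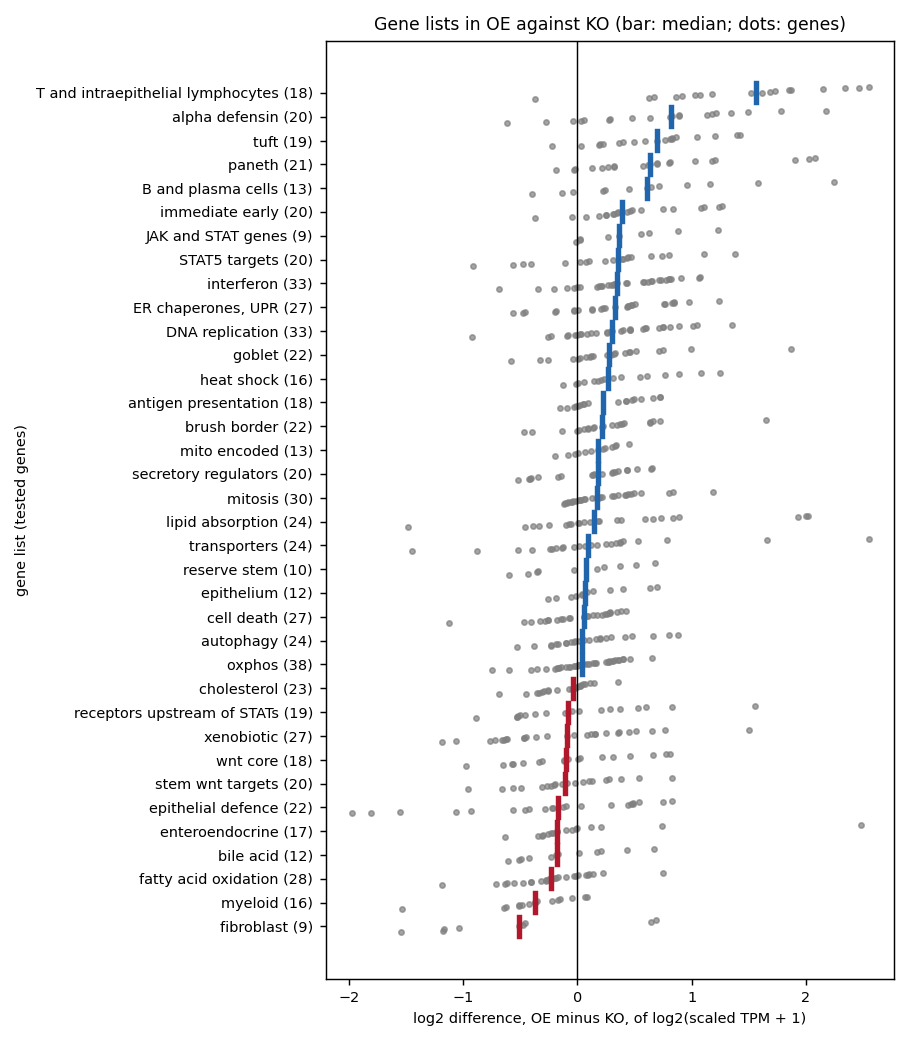
Differences of the tested genes of each list with 9 or more tested genes (grey dots, OE minus KO on the log2(scaled TPM + 1) scale, horizontal axis) and the list medians (bars, blue above 0 and red below), ordered by median. The lymphocyte list lay highest at 1.56 and the fibroblast list lowest at -0.51, against -0.01 over all genes.

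T cell and intraepithelial lymphocyte genes had the highest median of the 41 lists. Of 20 listed, 19 were in the files and 18 were tested, and 17 of these had a positive difference, with a median of 1.56. In 8 all OE libraries exceeded both KO libraries, or 10 in TPM as deposited, beside a background of 3.98% of genes. The 8 were Gzma, Gzmb, Ccl5, Cd3e, Lck, Nkg7, Trac and Zap70. Cd247, the zeta chain of the T cell receptor complex, was the one negative value at -0.38, and Xcl1 was listed at 0 in all libraries. The median stayed between 1.13 (without KO 1) and 1.91 (without KO 2) when single libraries were left out, and was 1.49 without OE 3 and OE 4.

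Cytotoxic effectors differed most. Gzma, which encodes granzyme A, stood at 10.8 and 32.1 scaled TPM in KO and at 177, 47.9, 74.4, 128 and 243 in OE, a log2 difference of 2.55 (1.07 to 4.02). Gzmb, which encodes granzyme B, stood at 1.28 and 8.84 in KO and at 23.9, 12.9, 19.4, 31.3 and 34.5 in OE, a difference of 2.35 (1.06 to 3.63). In both genes OE 2 was the lowest OE library and KO 1 the lowest of all. Ccl5, a chemokine of cytotoxic T cells, stood at 5.36 and 13.0 in KO and at 80.4, 25.9, 33.2, 44.0 and 112 in OE, a difference of 2.46 (1.14 to 3.78). Each had a limma adjusted p of 0.920.

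Listed genes of the T cell receptor and its signalling differed in the same direction, apart from Cd247 at -0.38, and not all of them separated. Cd3e, a chain of the receptor complex, stood at 1.26 and 4.32 scaled TPM in KO and at 14.7, 6.35, 16.8, 15.3 and 24.4 in OE, a log2 difference of 2.15 (1.02 to 3.28). Lck, the kinase that starts receptor signalling, stood at 6.35 and 6.41 in KO and at 41.4, 13.8, 15.2, 32.1 and 39.0 in OE. Trac, the constant region of the receptor alpha chain, stood at 4.27 and 8.18 in KO and at 33.1, 8.22, 17.0, 25.2 and 28.3 in OE, where OE 2 lay just above KO 2. Tcrg-C2, a constant region of the gamma chain and no member of the list, stood at 0.367 and 0.940 in KO and at 10.6, 3.29, 15.7, 22.1 and 17.8 in OE, a difference of 2.99 (1.62 to 4.35, limma adjusted p = 0.872). Trbc2, the constant region of the receptor beta chain, overlapped through OE 2 and OE 3, which lay below KO 2. Its log2 difference was 1.52 (-0.21 to 3.24). The receptor complex genes Cd3d (0.92) and Cd3g (0.67) overlapped as well. Cd8a and Cd7 overlapped through OE 2, which lay below KO 2 in each. Cd8a stood at 1.08 and 3.53 in KO and at 10.2, 2.95, 12.1, 10.6 and 15.2 in OE. Cd4, of helper T cells, was low throughout, at no more than 2.27 scaled TPM.

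Over the whole list, the summed level was 59.8 and 133 scaled TPM in KO and 534, 158, 277, 443 and 680.2 in OE. The ratio of the group means was 4.34, with a range from 3.14 without KO 1 to 6.997 without KO 2, and it was 4.74 without OE 3 and OE 4. OE 2 was the OE library closest to KO. Stat4, Tcf7 and Thy1, described with other genes, are known from T cells as well, and the part of lymphocytes in their differences was not tested.

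Markers of other non-epithelial cells overlapped in sum between the groups. Of 13 tested B and plasma cell genes, 10 had a positive difference with a median of 0.61, which was 0.09 without KO 2, 0.16 without OE 4 and 1.11 without KO 1. Jchain, which joins secreted antibodies, separated at 10.4 and 4.74 scaled TPM in KO and 19.5, 17.6, 33.8, 124.5 and 48.3 in OE. Igkc, the kappa light chain, overlapped at 224 and 67.6 in KO and 251, 108, 426, 1170.3 and 521 in OE. All 3 tested haemoglobin genes of red blood cells were positive with a median of 0.88, which ran from 0.58 without OE 1 to 1.77 without KO 1, and none separated. Among them, Hba-a1 and Hba-a2 are near-identical copies between which reads may be split. The red blood cell list summed to 41.1 and 63.8 scaled TPM in KO and 132, 17.3, 158.5, 41.6 and 108.5 in OE. Of 16 tested macrophage, dendritic cell and neutrophil genes, 14 had a negative difference with a median of -0.37, which turned to 0.12 without KO 1 and was -0.68 without KO 2 and -0.64 without OE 1. Their sum was 304 and 182 scaled TPM in KO and 88.8 to 371 in OE. Of 9 tested fibroblast genes, 7 had a negative difference with a median of -0.51, which was 0.02 without KO 1, -1.49 without KO 2 and -0.93 without OE 1. The fibroblast sum was 103 and 32.5 in KO and 139, 22.3, 74.2, 33.8 and 31.1 in OE, so KO 1 and OE 1 were the high libraries. Ly6g, a neutrophil marker, and Emcn, Myh11, Gfap, Sox10, Uchl1 and Vip of endothelium, muscle and nerve were listed at 0 in all 7 libraries.

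**Figure D3:**
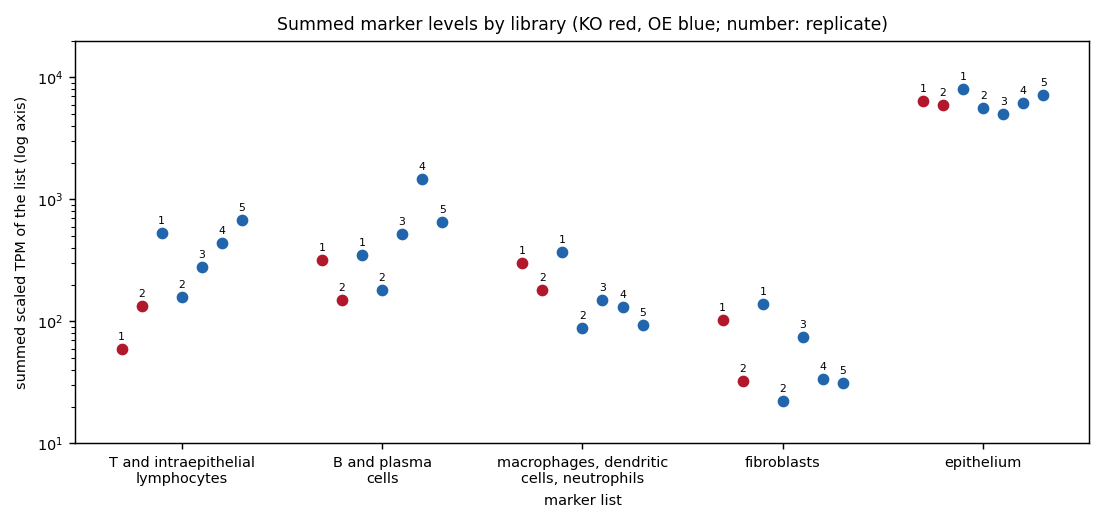
Summed scaled TPM (vertical log axis) of 5 marker lists in each library, KO in red and OE in blue, with the replicate number above each point. The lymphocyte sums of OE, 158 to 680.2, lay above both KO sums of 59.8 and 133, while the B cell, myeloid, fibroblast and epithelial sums overlapped.

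Of 33 tested DNA replication genes, 26 had a positive difference with a median of 0.31, and in 7 all OE libraries exceeded both KO libraries (background 3.98%), or 6 in TPM as deposited, where Gins1 and Ccne1 join and Mcm3, Mcm7 and Dut drop out. Pcna, the sliding clamp of the replication fork (chromosome 2, 132249162 to 132253314), stood at 17.0 and 10.7 scaled TPM in KO and at 41.8, 37.3, 30.3, 32.9 and 39.3 in OE. Its means were 13.9 ± 4.44 (SD, n = 2) and 36.3 ± 4.67 (SD, n = 5), and its log2 difference was 1.35 (0.78 to 1.92, limma adjusted p = 0.868). The lowest OE library was well above the higher KO library.

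Lig1, which joins Okazaki fragments, stood at 12.4 and 15.8 scaled TPM in KO and at 22.5, 30.7, 34.2, 28.0 and 36.3 in OE, a log2 difference of 1.04 (0.47 to 1.62). Its exons overlap those of Zswim9, so its level is uncertain. Gins2, of the replicative helicase, stood at 7.74 and 9.15 in KO and at 18.9, 19.9, 18.7, 12.9 and 20.7 in OE, a difference of 1.01 (0.45 to 1.58). Pold1, the catalytic subunit of polymerase delta, stood at 18.5 and 18.3 in KO and at 33.0, 42.7, 38.2, 34.0 and 21.1 in OE. Mcm7 (0.89), Mcm3 (0.59) and Dut (0.71) also separated. Pola1, the catalytic subunit of polymerase alpha, lay lower in every OE library, at 11.1 and 7.84 in KO and 4.64, 4.61, 6.77, 4.86 and 2.38 in OE. The other helicase subunits Mcm2, Mcm4, Mcm5 and Mcm6 overlapped. The choice of KO library mattered here: the list's median was 0.17 without KO 1, with 17 of 33 genes positive, and 0.67 without KO 2, with 31 positive. Without OE 3 and OE 4 it was 0.33. The part of dividing lymphocytes in these values was not tested.

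Of 30 tested mitosis genes, 22 had a positive difference with a median of 0.17, which ran from -0.09 without KO 1 to 0.45 without KO 2. Aurkb, a kinase of the chromosomal passenger complex, and the kinetochore genes Nuf2 and Pmf1 separated, Aurkb not in TPM as deposited. Aurkb stood at 5.32 and 12.3 scaled TPM in KO and at 14.6, 25.6, 20.7, 19.3 and 20.9 in OE. Top2a, the topoisomerase of dividing cells, overlapped at 53.4 and 136 in KO and 84.8, 130.4, 117, 93.5 and 114 in OE. KO 1 was the lowest library for Top2a, Cdk1, Ube2c and Ccna2.

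**Figure D4:**
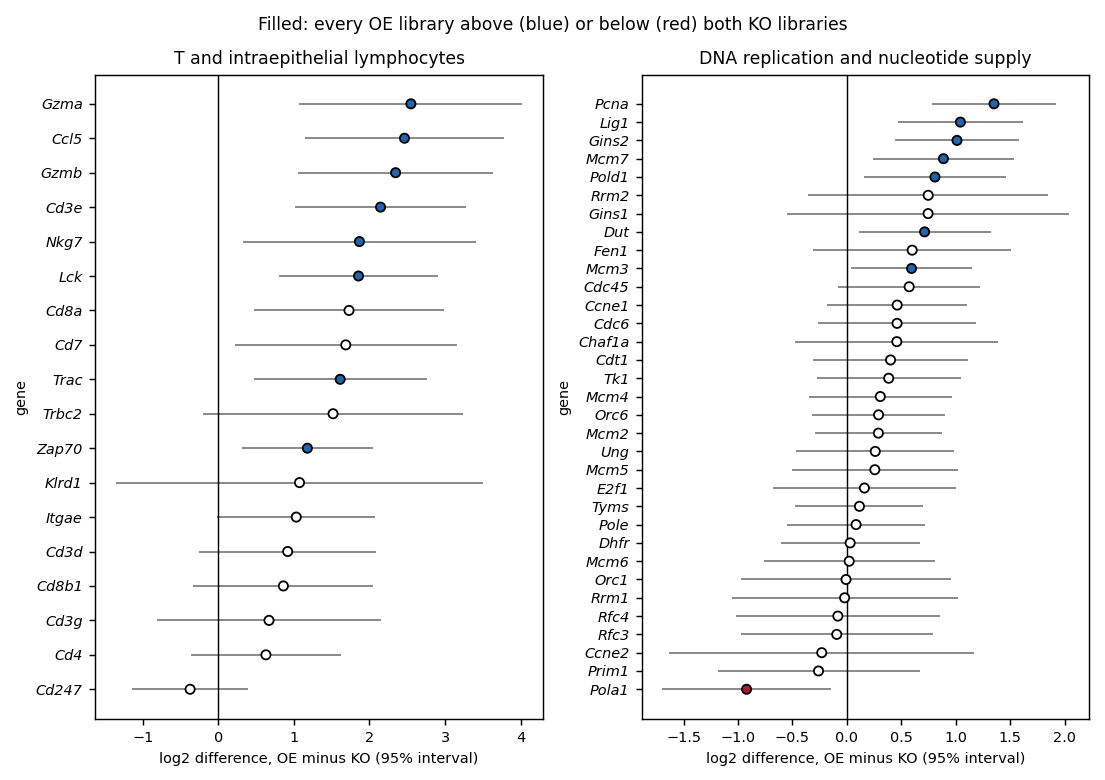
Difference of each tested gene, OE minus KO on the log2(scaled TPM + 1) scale (horizontal axis), with its 95% interval, for the lymphocyte list (left) and the DNA replication list (right). Filled points mark genes whose OE libraries all lay above (blue, 8 and 7 genes) or below (red, Pola1) both KO libraries.

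Chaperone and early response genes leaned towards OE. Of 16 tested heat shock genes, 14 had a positive difference with a median of 0.27, and Hsp90aa1, the inducible cytosolic HSP90, separated. It stood at 368 and 503 scaled TPM in KO and at 958, 814, 679.5, 1175 and 1016 in OE, a log2 difference of 1.08 (0.38 to 1.79). Of 27 genes of endoplasmic reticulum chaperones and the unfolded protein response, 20 were positive with a median of 0.33, which was 0.15 without KO 1 and 0.54 without KO 2. Calr, the lectin chaperone calreticulin, stood at 254 and 246 in KO and at 541, 372, 377, 476 and 513 in OE. Pdia6 and Atf3 separated in the same direction, and Atf6, a sensor of the response, in the opposite one. Of 20 immediate early genes, 18 were positive with a median of 0.39, and Atf3, Nr4a2, Dusp5 and Maff separated, all at 8.83 scaled TPM or less.

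Interferon response genes also leaned towards OE, with 27 of 33 positive and a median of 0.35. With single libraries left out, the median ran from 0.26 without KO 1, where 20 were positive, to 0.57 without OE 3. Their sum overlapped, at 260 and 276 scaled TPM in KO and 219 to 454 in OE. Isg15, a ubiquitin-like interferon-induced protein, was the one that separated, at 2.48 and 1.41 scaled TPM in KO and 8.07, 3.81, 3.66, 6.20 and 4.59 in OE. Antigen presentation genes had 14 of 18 positive and none that separated, or 2 in TPM as deposited, and their median of 0.22 turned to -0.16 without KO 1 and was 0.65 without KO 2. Among epithelial defence genes, 13 of 22 were negative. Cxcl5, a neutrophil-attracting chemokine, stood at 4.46 and 4.67 scaled TPM in KO and at 1.51, 0.0155, 0.675, 0.320 and 0 in OE, a log2 difference of -1.98 (-2.94 to -1.02, limma adjusted p = 0.920). Reg3g, an antibacterial lectin, overlapped with a difference of -1.06 (-2.59 to 0.46).

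Of 22 tested brush border genes, 18 had a positive difference with a median of 0.22, which ran from -0.03 without KO 1 to 0.47 without KO 2 and was 0.03 without OE 1. Of 24 lipid absorption genes, 16 were positive with a median of 0.15, which ran from -0.07 without OE 1 to 0.30 without OE 4. Fabp1, a fatty acid binding protein (chromosome 6, 71199827 to 71205023), stood at 2.77 and 3.64 scaled TPM in KO and at 13.7, 12.4, 26.7, 8.002 and 19.8 in OE, a log2 difference of 1.93 (0.99 to 2.87). Cd36, a fatty acid transporter, stood at 4.56 and 4.74 in KO and at 2.30, 0.486, 2.13, 0.703 and 0.307 in OE, a difference of -1.48 (-2.48 to -0.48). The far more abundant Fabp2 overlapped, from 68.0 in OE 4 to 2939.8 in OE 1. Among transporters, Slc28a1, a nucleoside carrier, lay higher and Slc40a1, the iron exporter, lower in every OE library. Slc28a1 stood at 2.47 and 0.226 in KO and 4.91, 15.8, 10.5, 5.32 and 34.3 in OE. Slc40a1, which overlapped in TPM as deposited, stood at 33.8 and 31.0 in KO and 15.9, 24.7, 5.44, 20.0 and 3.59 in OE. Vil1, whose promoter drives the Cre of both groups, separated at 151 and 141 in KO and 389, 185, 201, 198 and 212 in OE, a difference of 0.64 (-0.10 to 1.38).

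Fatty acid oxidation leaned the other way, with 21 of 28 genes negative and a median of -0.23, which was -0.07 without KO 1. Cpt1a, the gatekeeper of mitochondrial fatty acid uptake, stood at 46.4 and 38.1 scaled TPM in KO and at 19.1, 30.1, 36.2, 27.1 and 24.1 in OE. Pdk3 was lower and Cpt2 higher in every OE library. Cpt1a and Cpt2 overlapped in TPM as deposited. Among 27 tested xenobiotic genes, 4 lay lower in every OE library (Ugt2b34, Ugt1a7c, Cyp2j6 and Ugt2b5), with log2 differences from -0.63 to -0.36, in a list with a median of -0.09. Respiratory chain genes had a median of 0.04 over 38 genes and mitochondrially encoded ones a median of 0.18 over 13, and each turned negative without KO 2 and without OE 1.

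Wnt and stem cell genes were near 0 as lists, with medians of -0.10 over 18 tested Wnt pathway genes and -0.11 over 20 stem cell and Wnt target genes, each of which was -0.01 without KO 1. Among Wnt pathway genes, Tcf7 and Gsk3a lay higher and Fzd5, Lrp6 and Wls lower in every OE library, Wls not in TPM as deposited. Tcf7, a Wnt effector that T cells also use, stood at 4.72 and 3.93 scaled TPM in KO and at 10.8, 5.14, 6.50, 13.7 and 7.89 in OE. Lrp6, the Wnt co-receptor, stood at 19.4 and 19.6 in KO and at 7.96, 13.3, 13.7, 15.9 and 10.7 in OE, a log2 difference of -0.66 (-1.30 to -0.01). Fzd5, the Wnt receptor of Paneth cells, stood at 34.1 and 41.3 in KO and at 19.4, 29.0, 33.1, 27.8 and 19.2 in OE. Lgr4, an R-spondin receptor, stood at 39.5 and 60.8 in KO and at 20.9, 35.8, 35.1, 33.1 and 31.2 in OE. Olfm4, a stem cell marker, overlapped at 174 and 228 in KO and 60.4, 196, 520.1, 195 and 163 in OE.

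The genes of smallest p with separated groups and a higher group averaging 5 scaled TPM or more were taken, 12 in each direction. Their separation was thus fixed by the choice and is given as a description. Thy1, a surface protein of mouse T cells (chromosome 9, 44043384 to 44048579), led the higher side. It stood at 1.42 and 1.17 scaled TPM in KO and at 6.17, 5.51, 5.90, 8.72 and 6.61 in OE, a log2 difference of 1.71 (1.13 to 2.29, limma adjusted p = 0.359). It was followed by Pcna, Tcrg-C2, Fabp1, Sharpin, Prkrip1, Cd3e, Ccl5, Eci3, Defa3, Fkbp2 and Gzmb. Thy1, Tcrg-C2, Cd3e, Ccl5 and Gzmb among these are lymphocyte genes, and OE 2 was the lowest OE library for each. They are not taken as separate observations, and the share of lymphocyte genes among all tested genes was not counted. Tcrg-C2 lay below 1 TPM in both KO libraries, so it passed the filter through OE libraries alone. Sharpin, a subunit of the linear ubiquitin ligase, stood at 9.34 and 11.8 in KO and at 21.3, 21.6, 25.4, 22.9 and 18.5 in OE. Fkbp2, a prolyl isomerase of the endoplasmic reticulum, was listed at 0 in KO 1 and stood at 3.55 in KO 2 and 6.04 to 32.2 in OE. Eci3, a peroxisomal enzyme of fatty acid breakdown, stood at 2.32 and 2.19 in KO and 5.05 to 8.78 in OE, and shares exonic bases with an antisense transcript.

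Esr1, oestrogen receptor alpha (chromosome 10, 4611593 to 5005614), led the lower side. It stood at 8.46 and 4.47 scaled TPM in KO and at 1.09, 1.02, 1.72, 1.25 and 1.77 in OE, a log2 difference of -1.62 (-2.34 to -0.90, limma adjusted p = 0.868). Of the 10 lower genes with a promoter entry, Esr1 alone held the palindrome (10%). Gzmb alone did so of the 7 higher genes with an entry (14.3%), beside 8.49% of tested symbols. Aim2, a sensor of cytosolic DNA, stood at 33.0 and 29.9 scaled TPM in KO and at 17.4, 16.1, 12.1, 15.1 and 15.2 in OE. Tfdp2, a dimer partner of E2F factors, stood at 7.30 and 7.55 in KO and at 2.12, 2.26, 3.90, 2.49 and 2.29 in OE. In both genes the KO libraries lay close together and far from every OE library.

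Wnk1, a kinase that controls ion transport, showed the largest negative difference of the 12, -2.52 (-3.92 to -1.12). It stood at 618 and 252 scaled TPM in KO and at 39.9, 197, 62.8, 66.0 and 44.5 in OE, so OE 2 came near KO 2. Kif24, a kinesin of centrioles, stood at 19.8 and 24.2 in KO and at 1.49, 4.93, 3.46, 10.8 and 0.943 in OE. Ctnnbl1, of a splicing-associated complex, stood at 30.8 and 34.4 in KO and at 13.2, 10.2, 18.3, 14.8 and 17.5 in OE. Pxylp1, Zfand1, Slc25a53, Hdhd3, Dynlt3 and Triqk completed the list, with log2 differences from -1.66 to -0.88 and limma adjusted p of 0.920.

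**Figure D5:**
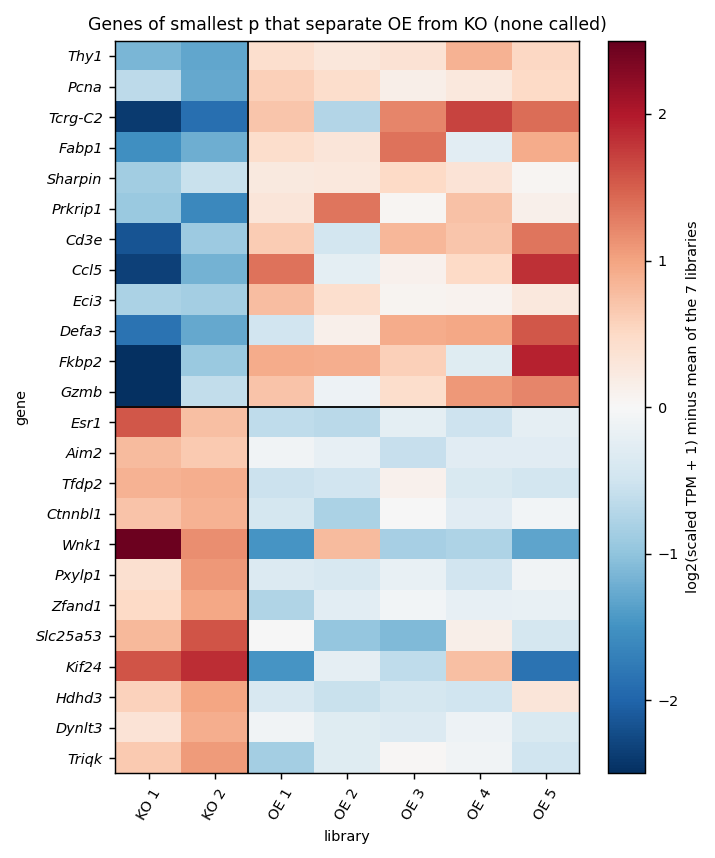
Each gene's log2(scaled TPM + 1) minus its mean over the 7 libraries (colour, capped at 2.5 in either direction) for the 12 genes of smallest p in each direction whose groups did not overlap; columns are libraries and rows genes. The upper block is higher and the lower block lower in all 5 OE libraries, which the choice of genes fixed, and none passed the test.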

How the data were processed

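RNA of ileal crypts was sequenced from 10 mouse libraries, of which the 5 OE and 2 KO libraries were used. The authors deposited TPM per Ensembl gene ID, per the file headers. The submitters' processing notes name TopHat, Cufflinks and mm10, with no version or role. The annotation, and the tool behind the TPM, were not given in the sources used here. Crypts were released by shaking in EDTA buffer, and single-end libraries were made from total RNA, per the labels' protocols.

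Symbols and coordinates came by ID from GENCODE M21 (GRCm38), which named 27475 of 28987 IDs. TPM were divided by median-ratio factors over 12393 genes above 0 in all 7 libraries. limma 3.58.1 (R 4.3.3) with an intensity trend was run on log2(scaled TPM + 1), with pseudocount 1, Benjamini-Hochberg adjustment over 12697 genes and a threshold of 0.05. The script was tested on simulated data. Of the tested genes, 686 had no KO library and 20 no OE library at 1 TPM. A member that passed the filter only through 1 group had to differ, so counts over tested members are descriptions.

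The comparison, lists and rules were chosen with earlier results of these data known. Named were Stat5a, Stat5b and the title's genes, the 12 of smallest p in each direction without overlap (higher group averaging 5 scaled TPM or more, leaving out predicted genes, pseudogenes and small RNAs), every tested JAK, STAT and STAT5 target gene, and up to 4 members of highest mean per list. Other list members, mostly those without overlap, and the neighbours of Stat5a were named after their values were seen. Each of the 2 Stat5 genes also had an exact permutation test. Alternatives were other scalings, pseudocounts, filters, fits and libraries.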

Additional observations from a re-analysis of the deposited data

Results flagged for a closer look

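In the OE group, 16 of 203 named genes had 1 library far from the other 4. The cut-off used gives about 1 in 20 for independent normal values. Unlogged TPM of related genes are not such values, so the number of flagged genes is a description. OE 1 stood far above the others for 6 of the 16 genes. Its values, with the range of the other OE libraries in scaled TPM, were 440.1 against 31.7 to 148.6 for Ces2a, 1568 against 397.9 to 670.5 for Fabp6 and 502.4 against 189.7 to 260.9 for Myo1a, 3 genes of mature enterocytes. They were 79.39 against 28.72 to 42.42 for Id1, 34.99 against 0.8799 to 7.531 for Sparc of fibroblasts, and 6.796e+04 against 2.656e+04 to 3.26e+04 for mt-Atp6. OE 5 stood above the others for 5. The values were 4947 against 1096 to 2174 for Defa17 and 6191 against 1755 to 2992 for Defa24, both alpha-defensins. They were 46.27 against 1.349 to 8.997 for Clps, 55.36 against 30.07 to 33.62 for Hdhd3 and 1706 against 1154 to 1238 for Atp5b. OE 4 stood above the others for the B lineage genes Jchain, at 124.5 against 17.61 to 48.29, and Ms4a1, at 37.07 against 0.692 to 6.223. OE 3 did so for Gcg, at 22.24 against 5.901 to 9.466, and for Tfdp2, at 3.896 against 2.119 to 2.487. OE 2 did so for Wnk1, at 197.1 against 39.87 to 65.95.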

How the results depend on the processing

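The absence of calls held in most settings. Genes higher in OE numbered 1 with TPM as deposited (Rpl30-ps9), 1 with a pseudocount of 0.1 (1700109H08Rik) and 1 without OE 3 and OE 4 (Gm13015). Genes lower in OE numbered 7 with no filter. With single libraries left out, each count ran from 0 to 2. The cause was not tested. With the replicate block both counts were 0, with 674 genes at an unadjusted p under 0.05 against 529. With it the Paneth median was 0.00293, with 11 of 21 genes positive. The numbers were not taken as pairs, since deviations of KO 1 with OE 1 and of KO 2 with OE 2 correlated at 0.059 and -0.0856. The Stat5a difference was 1.82 scaled TPM without OE 3 and OE 4 (exact permutation p = 0.1) and 2.02 to 2.72 with single libraries left out (exact permutation p = 0.0667 to 0.167), where fewer splits exist. Tcf7l2 ran from -0.238 without KO 1 to 0.522 without KO 2. Gfi1, 0.00 on the log2 scale, was -0.0119 as deposited, -0.054 with quantile normalization, -0.127 with a pseudocount of 0.1, -0.123 with array weights, -0.721 with the replicate block, -0.317 without OE 3 and OE 4, and -0.185 to 0.303 with single libraries left out. Of 29 genes named as Stat5, title or smallest-p genes, the other genes kept their direction in every setting run. Of 174 further list members, 75 of 3292 alternative values moved by more than the spread between replicates. The lymphocyte median ran from 0.969 with a pseudocount of 5 to 1.91 without KO 2. TPM carry no depth, and 2 KO libraries limit every value.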

Other observations

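The 3 smallest p of all genes belonged to 2 pseudogenes and a Rik-named gene, kinds that the naming rule left out. Rpl30-ps9, a processed pseudogene on chromosome X, stood at 0.877 and 0 scaled TPM in KO and at 58.4, 17.9, 59.3, 49.5 and 22.5 in OE, with a limma adjusted p of 0.153. 1700109H08Rik, a protein-coding gene on chromosome 5, was listed at 0 in both KO libraries and stood at 18.3, 12.7, 15.2, 5.45 and 5.07 in OE. Gm17020, a processed pseudogene on chromosome 9, stood at 3.27 and 3.07 in KO and was listed at 0 in all 5 OE libraries. How reads were split between pseudogenes and their parent genes is not given. Igflr1, a receptor for an IGF-like family protein, was listed at 0 in KO 1, stood at 0.618 in KO 2 and at 9.16, 3.21, 4.68, 3.53 and 3.47 in OE.

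Some genes in general use were listed near 0 in 1 library. Kpna2, a nuclear import factor, stood at 0.110 scaled TPM in KO 1 and 214 in KO 2, and at 71.4, 111, 121, 127 and 138 in OE. Without KO 2 it passed the limma test (adjusted p = 0.00572) with KO 1 as the only KO library.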
